A study of Gallus gallus with 4 samples.

Results

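The crocodilian and turtle named CR1 rows are the rows of the transposable element (TE) tables whose name starts with CR1- and ends in _Crp, _Croc, _AMi or _CPB. The rule found 11 rows among the 241 rows of the TE tables, which hold 38 rows with a CR1 name in all. No measured value entered the rule, but the rows were chosen with earlier results of these data known. Of the 11, 5 end in _Crp (CR1-8, CR1-11, CR1-13, CR1-15 and CR1-16), 3 in _Croc (CR1-3, CR1-L3A and CR1-L3B), 3 in _AMi (CR1-12, CR1-13 and CR1-16) and 0 in _CPB, so no row carried the turtle suffix. In repeat libraries such a suffix names the animal or group in whose genome the consensus sequence was built: the saltwater crocodile (_Crp), crocodilians (_Croc), the American alligator (_AMi) and the painted turtle (_CPB).

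Wild-type chick embryos were grown for about 30 h at 37 °C to Hamburger-Hamilton stage 9 minus (HH9-), and small RNA was taken from the cranial midbrain region. It was size selected from 19 to about 38 nucleotides, and each sample was divided. The oxidized portion (2 libraries) was treated with sodium periodate before cloning, and the total portion (2 libraries) was not. All 4 libraries come from wild-type tissue of the same region and stage, and the labels give no other treatment. The labels do not say how many embryos went into a sample or that the replicates came from separate pools, so the spread behind a p-value here is that between libraries and may be technical. Assigned reads numbered from 10981001 in oxidized replicate 1 to 17962725 in total replicate 1, and TE reads made up 48.5% and 46.1% of the oxidized and 0.868% and 1.01% of the total libraries (replicate 1 first, here and below).

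CR1, chicken repeat 1, is a LINE: a retrotransposon without long terminal repeats that spreads by copying its RNA back into DNA. It is the dominant retrotransposon of bird genomes, and related elements are found in crocodilians, turtles and other reptiles, so a copy in the chicken that matches a crocodilian consensus best is usually an old, decayed one. PIWI-interacting RNAs (piRNAs) guide PIWI proteins to transposon transcripts. They carry a 2′-O-methyl group at their 3′ end, which protects them from periodate, and those that pair with a transposon's transcript are antisense to it.

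Reads of these rows were few. Pooled over the 11 rows, oxidized replicate 1 held 449 and oxidized replicate 2 held 282, whereas total replicate 1 held 896 and total replicate 2 held 708. At least 1 read fell on 4 and 2 rows in the oxidized libraries and on 7 and 8 rows in the total libraries. CR1-12_AMi, CR1-13_Crp and CR1-16_Crp had 0 reads in all 4 libraries, which allows up to 0.120 CPM over both oxidized and 0.0912 CPM over both total libraries (a count of 0 allows up to 3 reads). CPM here means reads per 1000000 reads assigned to any of the 6 tables of a library. CR1-16_AMi had 3 reads, all in total replicate 2, so 7 rows held at least 20 reads over the 4 libraries and the other 4 rows are too thin to describe further. A row sums all annotated copies and is not adjusted for their length, so reads rank the rows as counted and do not rank their level per copy or per base.

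**Figure D1:**
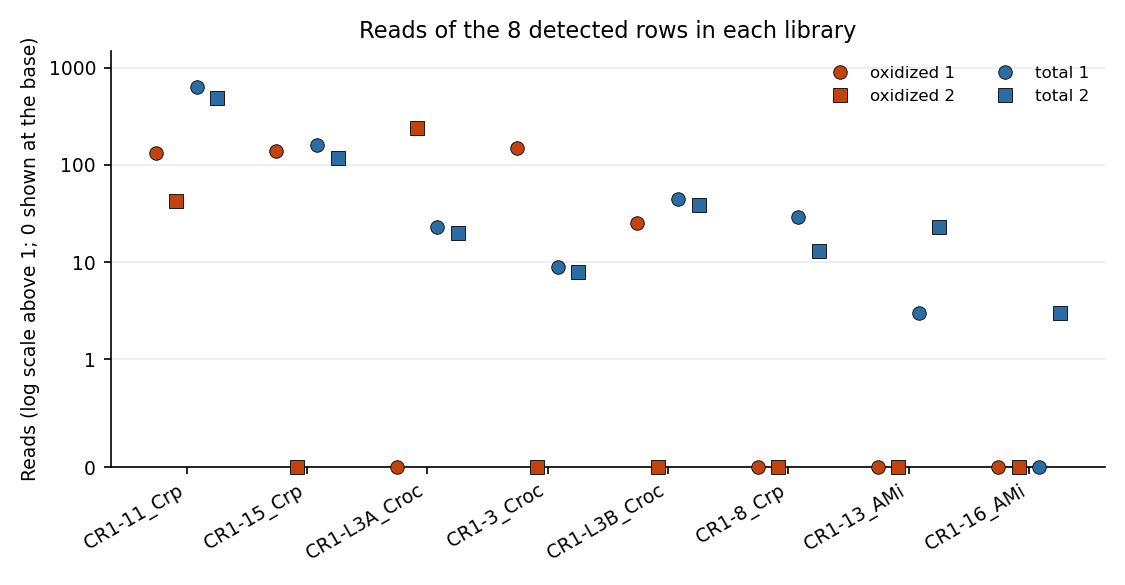
Reads (y axis, log scale above 1, with 0 at the base) of the 8 rows that had any read (x axis, most reads first) in oxidized replicates 1 and 2 and total replicates 1 and 2, with 1 point per library. The total libraries lie close together for most rows, whereas in 4 rows a single oxidized library holds all the oxidized reads.

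CR1-11_Crp was the row with the most reads, with 69.3% of the pooled reads of the total libraries. It had 133 and 43 reads in oxidized replicates 1 and 2, against 628 and 484 in total replicates 1 and 2. Both total libraries were above both oxidized ones. Its share was 7.58 ± 6.41 CPM after oxidation and 33.7 ± 1.82 CPM in total libraries (mean ± SD, n = 2 each), 4.44-fold lower. The difference did not pass edgeR's quasi-likelihood test (log2 fold change -2.15, SE 0.85, adjusted p = 0.091, Benjamini-Hochberg over all 1326 rows tested).

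CR1-15_Crp had 140 and 0 reads in the oxidized and 159 and 118 reads in the total libraries. The total replicates lay close together at 8.37 ± 0.676 CPM, and the oxidized ones, at 12.7 and 0 CPM, lay on either side of them. The row did not pass (adjusted p = 0.90 by edgeR, log2 fold change -0.39, SE 2.46). CR1-8_Crp, the remaining detected _Crp row, had 29 and 13 reads before and 0 and 0 after oxidation.

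On unstranded counts CR1-8_Crp was the only row of the 11 that was called, and it was lower (adjusted p = 0.011 by edgeR, with both oxidized libraries below both total ones). Against a limit of 3 reads over both oxidized libraries its share of 1.24 ± 0.527 CPM in total libraries (n = 2) was at least 10.4-fold lower after oxidation, a bound that covers counting error alone. At an unchanged share only 31.1 reads would be expected over both oxidized libraries together. The call was lost with the replicate number as a block (edgeR adjusted p = 0.30), without total replicate 2 (adjusted p = 0.57) and without total replicate 1 or with oxidized reads counted as molecules, as described below, where the row no longer passed the expression filter. The row passed that filter through its total libraries alone, and on the estimate of reads per molecule given below only 0.246 molecules would be expected after oxidation at an unchanged share. On that estimate the depth could not show a fall, and the call and the bound hold for reads, not for molecules.

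Each _Croc row had all its oxidized reads in a single library. CR1-L3A_Croc had 0 and 239 reads in the oxidized and 23 and 20 in the total libraries. CR1-3_Croc had 151 and 0 against 9 and 8. CR1-L3B_Croc had 25 and 0 against 45 and 39. In each of the 3 rows the total replicates agreed closely, at 1.31 ± 0.0408, 0.518 ± 0.0242 and 2.56 ± 0.0737 CPM in that order (n = 2), and the oxidized replicates did not: the library with reads stood far above the total libraries for CR1-L3A_Croc and CR1-3_Croc, and the library without reads stood below them.

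CR1-L3A_Croc did not pass (log2 fold change 2.69, SE 2.68, adjusted p = 0.44 by edgeR). Neither did CR1-L3B_Croc (log2 fold change -1.17, SE 2.02, adjusted p = 0.65). CR1-3_Croc was below the expression filter and was not tested. The sign of CR1-L3A_Croc rested on oxidized replicate 2, without which its log2 fold change was -7.27, and the block made it -0.59. Among the _AMi rows, CR1-13_AMi had 0 reads in both oxidized libraries and 3 and 23 in the total libraries. This is a spread of 0.853 ± 0.970 CPM between total replicates (n = 2), wider than its mean, and the row was not tested either.

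In total, 5 of the 11 rows passed the expression filter, which a row could pass through its total libraries alone. Of these 5, 0 were higher and 1 was lower after oxidation by edgeR, where 15.7% of all 1326 rows tested were higher and 57.3% lower. At an unadjusted p under 0.05 the counts were also 0 and 1, and DESeq2, which took in 8 of the 11 rows, gave 0 and 1 as well. The median log2 fold change of the 5 rows was -1.17, against -5.25 over all rows tested, most of which belong to other classes of small RNA, and 4.05 over the 105 TE rows tested. By contrast 23 of the 24 tested rows among the 27 other CR1 rows were higher and 0 were lower, with a median log2 fold change of 4.83. CR1-F, which had the most reads of these in both groups, went from 1287 to 134068 CPM. The rows left untested were CR1-1_Amn, CR1_Amni-1 and CR1AVI, the other CR1 rows with the fewest reads. Reads of CR1-1_Amn numbered 20 and 9 before and 0 and 0 after oxidation. For CR1_Amni-1 they were 13 and 2 against 0 and 0, and for CR1AVI 8 and 5 against 3 and 3. The contrast thus covers other CR1 rows with more reads and does not extend to these thin ones.

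**Figure D2:**
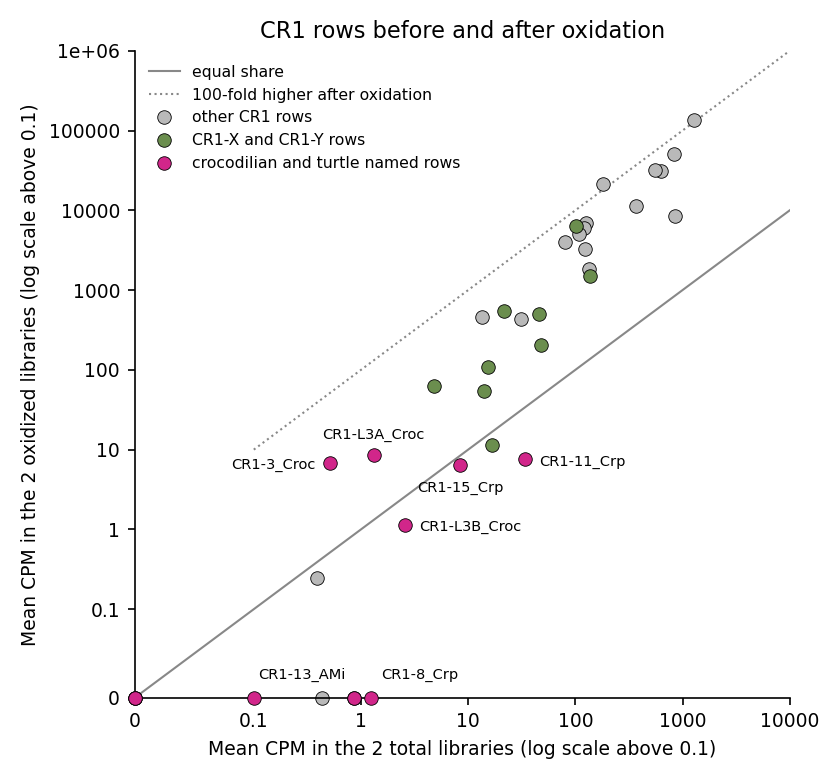
Mean CPM in the 2 total libraries (x axis) against mean CPM in the 2 oxidized libraries (y axis), both on a log scale above 0.1, with 1 point per CR1 row and lines for an equal share and a 100-fold higher share. The other CR1 rows lie mostly far above the line of equal share, and the crocodilian named rows are scattered on both sides of it, below 10 CPM after oxidation.

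The comparison between these rows and the rest of CR1 does not depend on the library size when it is made within each library. Per 1000 reads of the other CR1 rows, the 11 rows had 9.48 and 7.39 reads in total replicates 1 and 2 and 0.123 and 0.0630 in oxidized replicates 1 and 2. The groups did not overlap, and the ratio was 90.9-fold lower after oxidation (0.0928 ± 0.0421 against 8.43 ± 1.48, n = 2). An exact two-sided permutation test gave p = 0.333, the smallest that 6 arrangements of 2 libraries against 2 allow. Without CR1-11_Crp the ratio was still 37.03-fold lower (0.0698 ± 0.0232 against 2.59 ± 0.351). Of all TE reads the 11 rows took 0.575% and 0.468% in the total libraries and 0.00843% and 0.00434% in the oxidized libraries.

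As a share of the whole library, the 11 rows stood at 40.9 and 20.03 CPM after oxidation (exact 95% binomial intervals 37.2 to 44.9 and 17.8 to 22.5) and at 49.9 and 47.4 CPM in total libraries (46.7 to 53.3 and 43.9 to 51.0). Both oxidized libraries were below both total ones, at 30.5 ± 14.8 against 48.6 ± 1.78 CPM, 1.60-fold lower. The mean thus decreased by 18.2 CPM, a change close to the SD of the oxidized replicates (exact two-sided permutation p = 0.333). This library size counts miRNA, which made up 75.6% and 68.2% of the total and 1.56% and 1.62% of the oxidized libraries. On it the direction rested on CR1-11_Crp. Without that row, the remaining rows stood higher after oxidation, at 22.9 ± 8.35 against 15.0 ± 0.0477 CPM (n = 2). Most of their oxidized reads were those of CR1-15_Crp, CR1-3_Croc and CR1-L3A_Croc, each from a single library. Of TE reads the remaining rows took less after oxidation, 0.00593% and 0.00368% against 0.172% and 0.148% in the total libraries. The other CR1 rows together went from 5839 ± 812 to 325756 ± 11166 CPM, 55.8-fold higher.

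**Figure D3:**
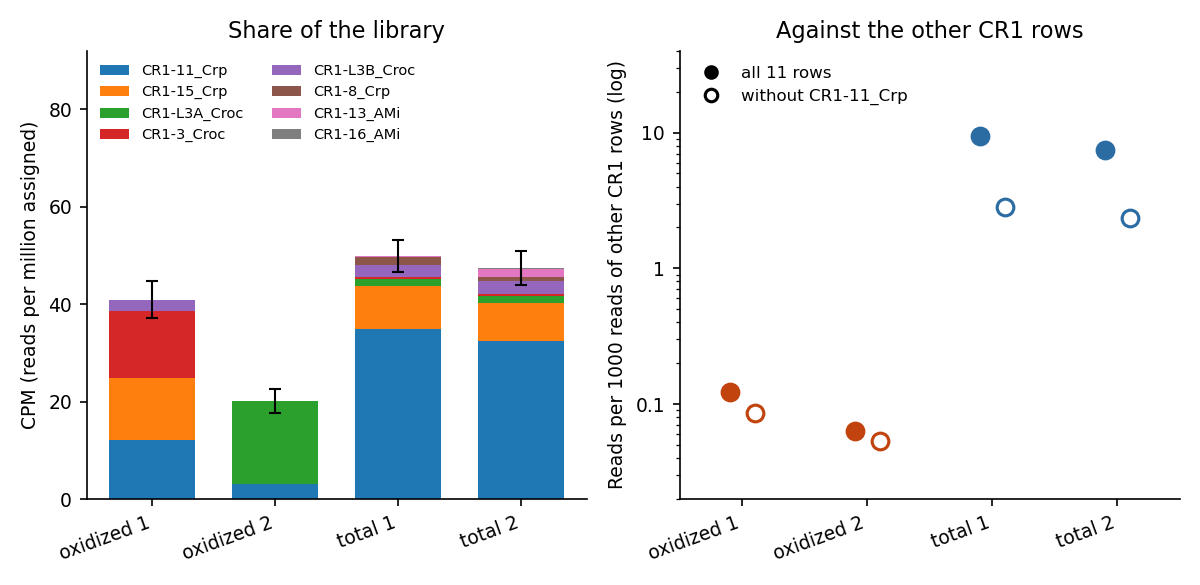
Left, CPM (y axis) of the detected rows stacked by row in each of the 4 libraries, with the exact 95% binomial interval of the sum. Right, reads of the 11 rows per 1000 reads of the other CR1 rows (y axis, log scale) in each library, filled for all rows and open without CR1-11_Crp. CR1-11_Crp is the largest block in both total libraries, and both ratios are lower in both oxidized libraries.

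Old chicken CR1 subfamilies were set beside the 11 rows as a related group. In number of reads CR1-1_Amn, CR1_Amni-1 and CR1AVI, given above, were nearer to most of the 11. The 9 CR1-X and CR1-Y rows went from 404 ± 62.2 to 9308 ± 946 CPM, 23.02-fold higher, and 8 of the 9 were called higher by edgeR. CR1-Y alone held 6293 CPM of this after oxidation. The ratio of oxidized to total mean CPM of single old rows ran from 0.676 (CR1-X1) to 61.8 (CR1-Y), with CR1-X at 3.88. CR1-15_Crp (0.761) lies within that range, as do CR1-L3A_Croc and CR1-3_Croc, given below. Per 1000 reads of these old rows, the 11 rows had 138 and 106 reads in total replicates 1 and 2 and 4.73 and 2.01 in oxidized replicates 1 and 2 (exact two-sided permutation p = 0.333). CR1-X1, the old row with the lowest ratio of oxidized to total mean CPM, had 31 and 279 reads in the oxidized and 282 and 266 in the total libraries. Its oxidized reads were 96.8% and 67.4% antisense. Ordered by oxidized over total CPM, the 32 CR1 rows with at least 20 reads began with CR1-8_Crp, CR1-13_AMi and CR1-1_Amn, tied at 0 after oxidation, and went on with CR1-11_Crp, CR1-L3B_Croc, CR1-X1 and CR1-15_Crp. CR1-L3A_Croc and CR1-3_Croc stood at places 10 and 16, at 6.48- and 13.3-fold higher mean CPM, each from 1 oxidized library. The order of neighbours among these thin rows is within their spread.

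The other TE rows with the same suffixes, 18 rows that are mostly DNA transposons by name, were compared as well. They went from 1001 ± 153 to 7.42 ± 8.69 CPM, 134.9-fold lower, and 6 of 7 tested rows were lower and 0 higher by edgeR (also 0 higher at an unadjusted p under 0.05). Chompy-2_Croc alone held 94.5% of their reads in the total libraries. Per 1000 reads of these rows the CR1 rows with the same suffixes had 45.0 and 53.1 reads in total replicates 1 and 2 and 32071 and 1476 in oxidized replicates 1 and 2 (exact two-sided permutation p = 0.333). The oxidized values rest on 14 and 191 reads of the reference rows. Of the 191, 177 were those of L2-1_CPB, which had 0 and 177 oxidized and 72 and 72 total reads. The mean ratio was 342 times that of the total libraries, 30.1 times without oxidized replicate 1 and 654 times without oxidized replicate 2. Relative to the reference rows, the CR1 rows thus stood higher after oxidation, and relative to the rest of CR1 lower.

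Reads of these rows were mostly sense, that is, in the direction of the annotated element. Antisense reads were 61 of 896 and 60 of 708 in total replicates 1 and 2, or 6.81% and 8.47% (exact 95% intervals 5.25 to 8.66% and 6.53 to 10.8%). After oxidation they were 140 of 449 (31.2%, 26.9 to 35.7%) in replicate 1 and 0 of 282 (0 to 1.30%) in replicate 2. The other CR1 rows were 97.8% and 97.6% antisense after oxidation and 88.2% and 89.3% in total libraries. In each of the 4 libraries the crocodilian named rows were less antisense than the other CR1 rows, with differences of -66.6 and -97.6 percentage points in the oxidized and -81.4 and -80.9 in the total libraries. These libraries are portions of divided samples, and the difference was not tested. It compares pools, which follow the rows with the most reads. Without CR1-11_Crp the antisense share was 44.3% and 0% in the oxidized and 21.6% and 25.4% in the total libraries. CR1-15_Crp, still included there, was also nearly all sense in the summed total libraries (2.17% antisense). Each remaining detected row was at least 34.9% antisense there. With both total libraries summed, single other CR1 rows ran from 0% antisense in CR1-1_Amn to 98.9% in CR1-B, with CR1-Y1_Aves at 23.4%. Oxidized and total libraries did not differ in the antisense share of these rows beyond their spread (15.6% ± 22.0 against 7.64% ± 1.18, n = 2, exact permutation p = 1).

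The strand differed from row to row. CR1-11_Crp was nearly all sense, with 3 and 3 antisense reads in the total libraries and 0 in either oxidized library, or 0.540% (0.198 to 1.17%) and 0% (0 to 2.07%). CR1-15_Crp was also sense in the total libraries, with 4 and 2 antisense reads of 159 and 118 (2.17%, 0.799 to 4.65%), but all 140 of its reads in oxidized replicate 1 were antisense (100%, 97.4 to 100%). These 140 reads were all the antisense reads that the 11 rows had after oxidation. The 3 reads of CR1-16_AMi were all antisense, and the remaining 5 rows were mixed in the total libraries.

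In the total libraries, with both replicates summed, CR1-L3B_Croc was 57.1% antisense (45.9 to 67.9%), CR1-L3A_Croc 34.9% (21.0 to 50.9%), CR1-8_Crp 42.9% (27.7 to 59.0%), CR1-13_AMi 50.0% (29.9 to 70.1%) and CR1-3_Croc 70.6% (44.0 to 89.7%). These intervals overlap. After oxidation CR1-3_Croc, CR1-L3A_Croc and CR1-L3B_Croc had no antisense read among 151, 239 and 25 reads. On the estimate given below these reads come to 1.24, 1.83 and 0.205 molecules. Pooled, the old CR1-X and CR1-Y rows were 50.0% and 55.4% antisense in the total libraries and 95.4% and 94.1% after oxidation. The 11 rows stood at 31.2% and 0% after oxidation. Most oxidized reads of the old rows were those of CR1-Y (99.0% and 99.5% antisense). CR1-X was mostly sense after oxidation (5.87% and 15.2% antisense), and the other old rows were mostly antisense. A mostly sense strand was thus not particular to the 11 rows.

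**Figure D4:**
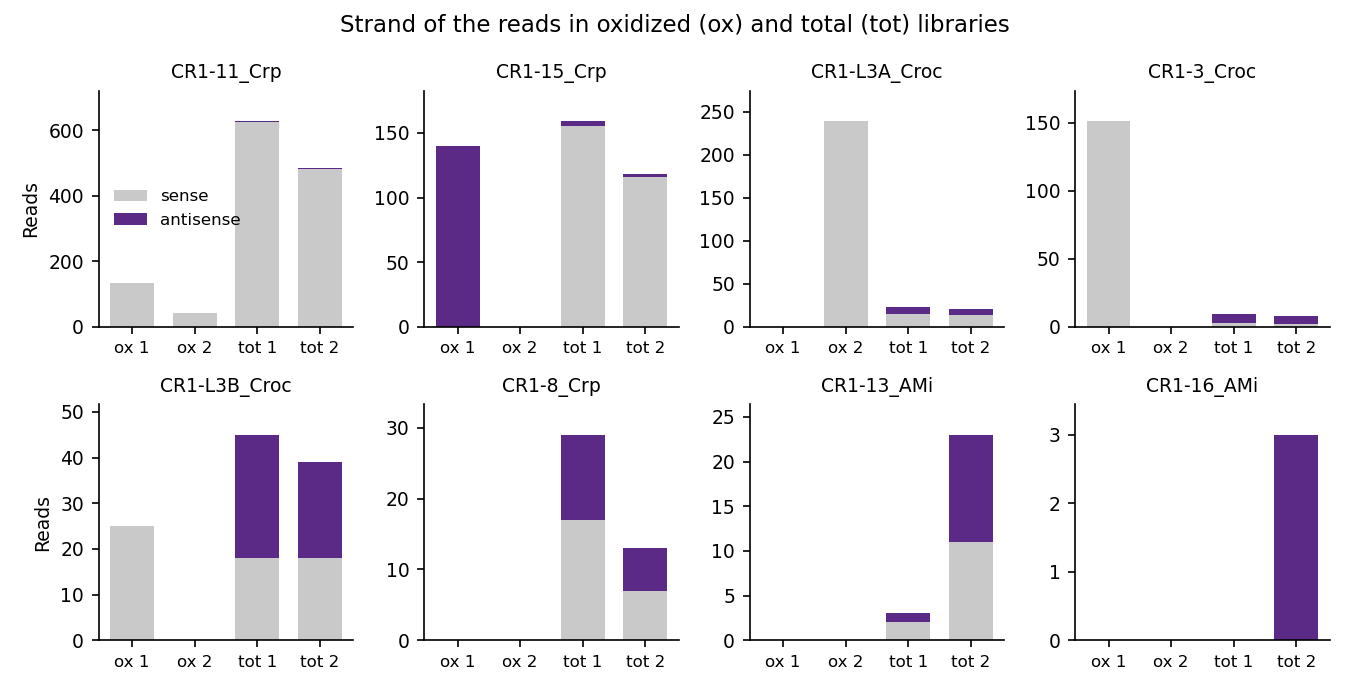
Reads (y axis, own scale for each row) of the 8 detected rows in oxidized (ox) and total (tot) replicates 1 and 2, divided into sense and antisense reads. CR1-11_Crp is sense in all libraries, CR1-15_Crp is sense in the total and antisense in the oxidized library that has reads, the 3 reads of CR1-16_AMi are antisense, and the other rows are mixed in the total libraries.

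Counted on the reverse strand alone, 1 of the 11 rows, CR1-L3B_Croc, passed the expression filter. Its antisense reads numbered 27 and 21 before and 0 and 0 after oxidation, and it was called lower (edgeR adjusted p = 0.00034, at least 12.1-fold against 3 reads over both oxidized libraries). Of the 210 rows tested on that strand, 33.3% were lower and 50.0% higher. The call was lost with the block (edgeR adjusted p = 0.13), when total replicate 1 (0.33) or total replicate 2 (0.32) was left out, and with oxidized reads counted as molecules, as described next (adjusted p = 0.54). The row passed the filter through its total libraries alone, and on the estimate below 0.288 antisense molecules would be expected after oxidation at an unchanged share, so that on this estimate the depth could not show a fall.

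Rows seen in a single oxidized library often had large counts. Rows of the other-gene tables with at least 20 reads in 1 oxidized library and 0 in the other numbered 202 for oxidized replicate 1 and 218 for oxidized replicate 2, with a median of 122 reads (quartiles 88.8 and 146) and 130.5 reads (quartiles 68.3 and 168). In the total libraries there was no such row: the highest count of a row that was absent from the other replicate was 15 and 18 reads. The reads of CR1-15_Crp (140) and CR1-11_Crp (133) in oxidized replicate 1 were inside those quartiles. CR1-3_Croc (151) there and CR1-L3A_Croc (239) in oxidized replicate 2 were above them, and CR1-11_Crp (43) and CR1-L3B_Croc (25) were below. Unlike the rows behind the quartiles, CR1-11_Crp had reads in both oxidized libraries. If the median is taken as the reads of 1 molecule, which was not tested, the 731 oxidized reads of the 11 rows come to about 5.84 molecules over both libraries. The value depends on the minimum of 20 reads: over all other-gene rows with any read in 1 oxidized library alone (335 and 334 rows) the median was 68 and 67 reads, which gives 10.8 molecules. Neither set of medians holds for every row. The 25 reads of CR1-L3B_Croc come to 0.205 and 0.368 molecules on them, and Chompy-6_Croc had 1 and 0 oxidized reads.

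**Figure D5:**
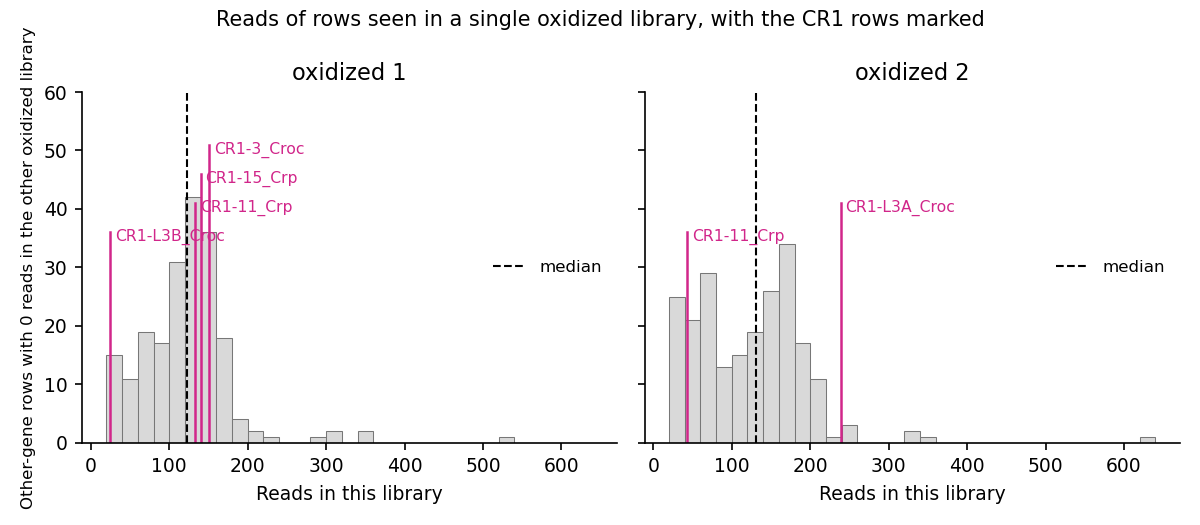
Number of other-gene rows (y axis) by their reads (x axis, bins of 20 reads) among rows with at least 20 reads in the oxidized library shown and 0 in the other, with the median dashed and the crocodilian named CR1 rows marked at their reads. The marks of both replicates fall at counts at which such single-library rows are also found.

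On the estimate of 122 and 130.5 reads, an unchanged share would give 9.62 molecules (18.1 with the medians of 68 and 67 reads) for the 11 rows, of which 6.66 would belong to CR1-11_Crp, 1.66 to CR1-15_Crp, 0.506 to CR1-L3B_Croc and 0.246 to CR1-8_Crp. For CR1-8_Crp and CR1-13_AMi (0.169 molecules), whose oxidized counts were 0, less than 1 molecule would thus be expected at an unchanged share, also with the smaller medians (0.462 and 0.317 molecules). A rise as large as that of the other CR1 rows would give 537 molecules, or 29791 and 38204 reads in oxidized replicates 1 and 2, where 449 and 282 were found. For CR1-11_Crp alone that rise would give 20630 and 26455 reads, where 133 and 43 were found. For CR1-3_Croc it would give 317 and 407 reads, where 151 and 0 were found. The rise used here is the 55.8-fold one of the pooled other CR1 rows, which follows the rows with the most reads. Single other CR1 rows ran from 0 oxidized reads in CR1-1_Amn to 117-fold higher in CR1-C3, with CR1-X at 3.88-fold.

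The row whose levels over the 4 libraries were nearest to those of CR1-11_Crp was MER133A, by Euclidean distance on log2(CPM + 1) over 230 other TE rows (distance 2.03, the next being CR1-X1 at 3.26). It had 118 and 3 reads in the oxidized and 1201 and 674 in the total libraries, with 0 antisense reads in the oxidized libraries and 2 and 0 in the total libraries.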

How the data were processed

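The authors deposited raw read counts per row, without normalization, as 6 tables per library (tRNA, rRNA, miRNA, TE families, further repeats and further genes, 24689 rows), each once unstranded and once for the reverse strand. They were made with featureCounts on galGal6, per the submitters' processing notes. The aligner, the annotation and how multi-mapping reads were counted are not given in the sources used here, and the last can move reads between related CR1 rows. Reverse reads were taken as antisense, since tRNA had at most 0.00257% of its reads there. None of the 11 rows had more reverse than unstranded reads, although 4 TE rows did.

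Library size was the summed unstranded count of the 6 tables, with no further factor. A single model was fitted to the counts of the 6 tables with edgeR 4.0.16 (glmQLFit and glmQLFTest in R 4.3.3, default expression filter, threshold 0.05 on Benjamini-Hochberg adjusted p). The fit was tested on simulated data without the large swings between oxidized replicates seen here, so that test does not bear on such rows. The SE is the log2 fold change divided by the square root of its F value. Pooled shares were compared by exact permutation over libraries in Python 3.11.15, with exact (Clopper-Pearson) 95% intervals from scipy 1.17.1. Intervals and floors cover counting error alone, as PCR copies are not independent molecules. Rows with at least 20 reads were described by library, and rows called with these settings were named in any case. The alternatives were TMM factors, DESeq2 1.42.0, no filter, other library sizes, a replicate block, reads counted as molecules and each library left out. For the block, libraries of the same number were treated as a pair: the series says that samples were divided, and the labels do not tie the numbers to samples. Their deviations were not correlated (-0.02 over 365 rows). Replicates were not copies of each other (chi-square per degree of freedom 239 for oxidized and 95.8 for total). The 24356 Ensembl IDs have no names in the files and 0 of them matched the RefSeq gene table, so midbrain markers were not checked. The rows and lists were chosen with earlier results of these data known. Sequences and coordinates of the repeat copies were not used here.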

Additional observations from a re-analysis of the deposited data

How the results depend on the processing

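The number of the 11 rows called lower, 1 of 5 tested, was 2 of 8 without an expression filter (CR1-8_Crp and CR1-13_AMi). It was 2 of 6 with a library size that omits miRNA (CR1-8_Crp and CR1-11_Crp). It was 0 of 5 with the replicate block. With 1 oxidized library left out most tested rows were called lower, and with 1 total library left out none was. Such fits leave 1 library in a group, so the count is not stable. The number called higher, 0, became at most 1, without oxidized replicate 1 (CR1-L3A_Croc, log2 fold change 3.69) or oxidized replicate 2 (CR1-3_Croc), where the lone oxidized library is assumed to vary as the total ones do, and was 0 without either total library. CR1-11_Crp had a log2 fold change of -3.46 without oxidized replicate 1 and -1.47 without oxidized replicate 2. It was called lower with miRNA left out (edgeR adjusted p = 0.010) and counted as molecules (0.043). It was not called with TMM factors (edgeR adjusted p = 0.068), without the filter (0.11), with the block (0.30) or by DESeq2 (adjusted p = 0.27). CR1-L3A_Croc turned from higher to lower with the block (log2 fold change -0.59) and without oxidized replicate 2 (-7.27), and CR1-15_Crp from lower to higher without oxidized replicate 2 (0.60). Without oxidized replicate 1 the log2 fold change of CR1-15_Crp was -10.04 and that of CR1-L3B_Croc -8.33. On the reverse strand the 1 row called lower, of 1 tested, became 6 of 8 with DESeq2 and 2 of 2 with miRNA left out. The count was 0 of 1 with the block, 0 of 1 counted as molecules, and moved with single libraries left out. The 0 called higher became 1 without the filter and from 0 to 1 with single libraries left out. Other scalings moved the median log2 fold change of all rows on unstranded counts, by -0.19 with TMM, by -0.67 with DESeq2 and by -1.77 with miRNA left out, and on the reverse strand by -4.38, -5.03 and -1.82. Counted as molecules, the 1 row called lower was CR1-11_Crp and not CR1-8_Crp, which was not tested.

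The pooled share was 0.626 times as high after oxidation as before, 1.53 times without CR1-11_Crp, 0.175 times with miRNA reads left out of the denominator and 0.0122 times as a share of TE reads. It ran from 0.412 to 0.841 times with single libraries left out. The ratio to the other CR1 rows was 0.0110 times that of the total libraries and ran from 0.00747 to 0.0145 with single libraries left out, and kept its direction against CR1-X and CR1-Y rows (0.0276). Against the other TE rows with the same suffixes it was 342 times as high, and 30.1, 654, 316 and 373 times without oxidized replicate 1, oxidized replicate 2, total replicate 1 and total replicate 2, which was added after seeing the data. The antisense share was 7.95 percentage points higher after oxidation, -1.39 without CR1-11_Crp, and from -7.64 (without oxidized replicate 1) to 23.5 with single libraries left out. Its direction thus rested both on CR1-11_Crp and on oxidized replicate 1, which held the 140 antisense reads of CR1-15_Crp. The cause of these changes was not tested. Depth limits these rows: 7 of 11 had 20 reads or more over 4 libraries.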
